A study of Mus musculus with 42 samples.

Results

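Myc, the gene whose transgene started these tumours, was followed through the values of the probe annotated to it, which is 1 of 22800 probes on each array, as Myc is 1 of 15096 genes named there. The probe gave a value on all 42 arrays. Its likeness to other genes was then examined over 21 tumours. The arrays had 2 colours and carried RNA of mouse mammary tumours against a universal mouse reference RNA, with 2 arrays of opposite dye orientation for each tumour. All tumours go back to neoplasms of FVB/N-Tg(WapMyc)212Bri mice, in which the promoter of the milk protein gene Wap, active in mammary epithelium, drives c-Myc, and passage in living mice then separated glandular, solid or comedo, and spindle-cell growth. The labels number the tumours but do not give the growth pattern or line of each, so the comparisons are between numbered tumours that all share the transgene, and no tumour without it was analysed here. Nor do the labels say which tumours share an ancestor.

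Myc is a transcription factor that binds DNA as a pair with its partner Max, above all at E-box motifs, and raises transcription of genes for ribosome assembly, nucleotide and one-carbon metabolism and cell growth. Mxd proteins and Mnt compete with it for Max, and together with the zinc finger protein Zbtb17 (Miz1) Myc lowers transcription at other genes. The Wap promoter responds to prolactin through Stat5 and is strongest in late pregnancy and lactation, so a Wap-driven transgene is tied to the secretory state of the epithelium. The sequence of the Myc probe was not used here, and transcripts of the transgene and of the mouse's own Myc gene cannot be told apart in its values.

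Windows of 4 promoters are printed below. The Wap window is shown because this promoter drives the transgene. The other windows are shown because they held the E-box CACGTG among the genes that turned out most like or most opposed to Myc. They are RefSeq sequences of build GRCm38.p6, from 250 bases before the start of the gene to 50 bases after it, and capitals mark the E-box. The Wap window is chr11:6638600-6638899 on the minus strand. That of Acy1, an aminoacylase, is chr9:106438187-106438486 on the minus strand, that of Anln (anillin, an actin-binding protein of cytokinesis) chr9:22389157-22389456 on the minus strand, and that of Ilk (integrin-linked kinase) chr7:105736340-105736639 on the plus strand.
Wap: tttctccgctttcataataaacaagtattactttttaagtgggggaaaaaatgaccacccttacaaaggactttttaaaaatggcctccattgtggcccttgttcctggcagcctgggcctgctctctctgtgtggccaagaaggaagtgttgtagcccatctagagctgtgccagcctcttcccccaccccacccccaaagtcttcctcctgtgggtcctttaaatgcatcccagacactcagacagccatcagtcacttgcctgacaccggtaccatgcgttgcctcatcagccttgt
Acy1: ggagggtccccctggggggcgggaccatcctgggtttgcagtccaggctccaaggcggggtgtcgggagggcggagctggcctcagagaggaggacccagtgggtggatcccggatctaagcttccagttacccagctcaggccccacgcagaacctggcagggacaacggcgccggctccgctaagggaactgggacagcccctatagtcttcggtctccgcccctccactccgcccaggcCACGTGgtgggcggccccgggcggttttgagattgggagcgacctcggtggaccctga
Anln: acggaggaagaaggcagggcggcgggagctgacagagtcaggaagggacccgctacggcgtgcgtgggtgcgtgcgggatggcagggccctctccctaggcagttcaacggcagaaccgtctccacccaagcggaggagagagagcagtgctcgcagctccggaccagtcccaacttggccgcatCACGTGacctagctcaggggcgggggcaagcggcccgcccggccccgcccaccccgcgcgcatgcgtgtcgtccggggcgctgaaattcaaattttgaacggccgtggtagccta
Ilk: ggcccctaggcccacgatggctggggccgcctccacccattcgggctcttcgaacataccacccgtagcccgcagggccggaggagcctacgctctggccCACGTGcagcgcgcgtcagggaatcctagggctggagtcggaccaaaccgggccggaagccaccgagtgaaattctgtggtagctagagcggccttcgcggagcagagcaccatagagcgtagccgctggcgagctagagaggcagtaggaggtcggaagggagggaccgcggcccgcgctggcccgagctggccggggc

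In the Wap window neither CACGTG nor TTCNNNGAA, the core to which Stat5 binds, was found. Since the window reaches only 250 bases before the start of the gene, sites farther upstream were not searched. Both motifs read the same on both strands, and they do not overlap. The E-box began 8 bases before the start of Acy1, 65 before that of Anln and 150 before that of Ilk. No window of Myc itself was in the table.

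Values are log2 ratios of tumour over reference RNA after each array was set to a median of 0 over the 4038 probes measured on every array. Which array of a pair had which orientation, called A and B here, is not given in the labels and was read from the whole pattern of probes. The overall direction is likewise not given. It was set so that the caseins and Wap had a positive median, not by Myc, so the signs of all values together are a choice. An array measured between 8370 and 21098 probes, with a median of 17252, and having 2 arrays for a tumour limits the precision of its values. Tumour 656 stood apart, since its arrays, once turned, correlated at -0.07 over probes, although both gave Myc at 2.94 or more. Loadings on the pattern that set the orientation were lowest for tumours 646 (0.10), 647 (0.11), 649 (0.14), 673 (0.16) and 644 (0.16). These are also the tumours lowest in Myc, as given below.

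Myc was highest in 2 tumours, lay in a middle range in 14 and was near or below the reference in 5. This order holds for the direction chosen above. With all signs turned it would run the other way, with tumour 667 lowest at -3.99, tumour 656 next at -3.51 and tumour 646 highest at 0.69. Tumour 667 had 4.49 on the orientation A array and 3.48 on the orientation B array, a mean of 3.99 or 15.9 times the reference. Tumour 656 had 4.09 and 2.94, a mean of 3.51 or 11.4 times the reference. Every other array of the series lay below the lowest of these except for the orientation B array of tumour 638, at 3.13.

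In the middle range the means ran closely after each other. Tumour 638 had 2.18 on A and 3.13 on B, tumour 643 had 2.48 and 2.80, tumour 660 had 2.14 and 2.47, and tumour 653 had 2.23 and 2.29. Tumour 669 had 2.22 and 2.14, tumour 665 had 1.98 and 2.30, tumour 664 had 1.57 and 2.66, tumour 670 had 1.68 and 2.44, and tumour 662 had 1.97 and 2.11. The means of these 9 tumours lay between 2.65 in tumour 638 and 2.04 in tumour 662. Tumour 655 had 1.42 and 2.43, tumour 641 had 1.18 and 2.44, tumour 639 had 1.39 and 2.17, tumour 663 had 2.16 and 1.29, and tumour 640 had 0.89 and 2.15. The B array was the higher in most pairs of the middle range, and over all tumours Myc was 0.28 higher on B arrays than on A arrays, a dye effect that the fit took up as a term.

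The remaining tumours had Myc values below 0 on both arrays. Tumour 673 had -0.20 and -0.10, tumour 649 had -0.49 and -0.05, tumour 647 had -0.42 and -0.59, tumour 644 had -0.66 and -0.45, and tumour 646 had -0.77 and -0.61. The lowest mean, -0.69 in tumour 646, is 0.62 times the reference. The place of a tumour depends on the orientation read for its pair. With the orientation of its pair turned, the mean would be 0.69 in tumour 646, 0.50 in tumour 647 and 0.55 in tumour 644. In tumours 649 and 673 it would be 0.27 and 0.15. All of these still lie below the 1.52 of tumour 640, the next tumour above the gap. With the orientation of tumour 656 turned, its mean would be -3.51, the lowest of all tumours in place of the second highest. Its loading was 0.22, and all 6 other ways of reading the orientation left it as given here.

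**Figure D1:**
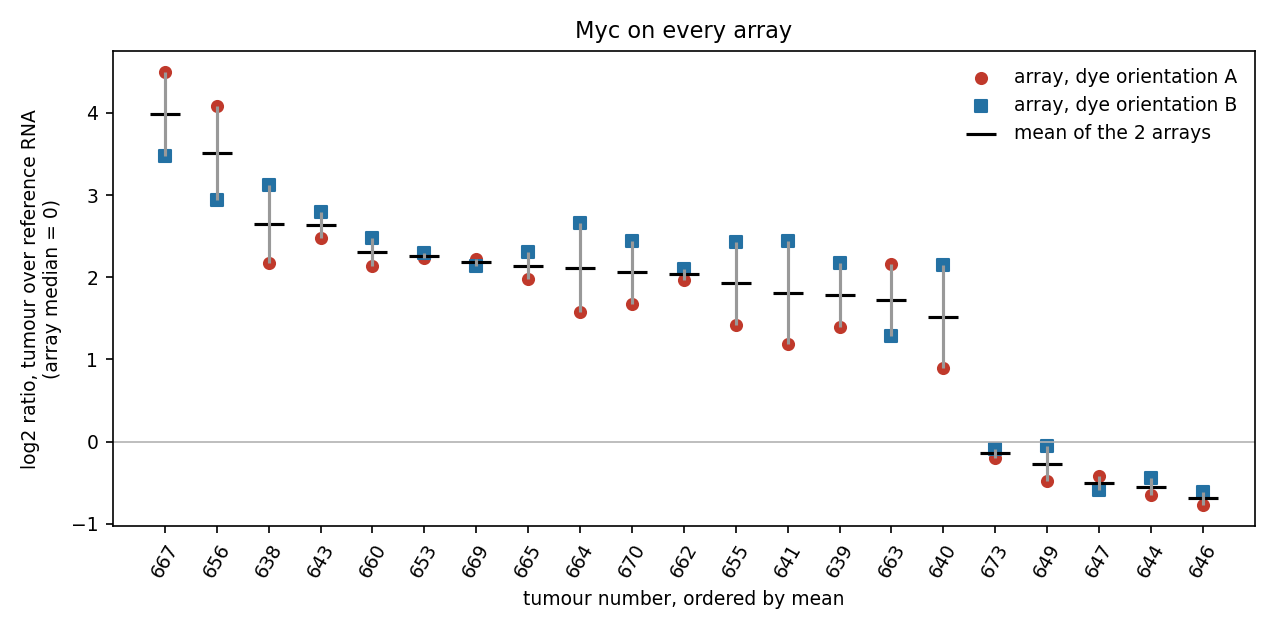
Myc log2 ratio (tumour over reference, array median at 0) on each of the 42 arrays, with tumours ordered by their mean. Red circles are arrays of dye orientation A, blue squares those of orientation B, and black bars the mean of both; 5 tumours on the right lie below 0 on both arrays, and 2 on the left have means above 3.

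Mixture clustering of the 21 means (mclust, by BIC) gave 3 components of 5, 14 and 2 tumours. The 5 ran from -0.69 to -0.15 with a median of -0.50, the 14 from 1.52 to 2.65 with a median of 2.09, and the 2 were 3.51 and 3.99. The gap between tumours 640 and 673 was 1.67, and that between tumours 656 and 638 was 0.86. Within the 14 tumours the SD of the means was 0.32, below the standard error of 0.35 that 2 arrays give a tumour mean, so the order within the middle range lies inside hybridisation error.

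The differences between tumours were larger than those between the arrays of a tumour. In limma's moderated F test, with tumour and dye orientation as terms and Benjamini-Hochberg adjustment over 9407 tested probes, Myc had F = 14.19 and an adjusted p of 9.25e-07, beside 3798 probes (40.4%) that differed at an adjusted p below 0.05. It ranked 161st of 9407 by F, and its intraclass correlation, the share of variance between tumours, was 0.87 against a median of 0.35 over all tested probes. Such p-values are set against how far both hybridisations of 1 RNA lie apart, and do not cover the spread between animals.

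Of 210 pairs of tumours, 96 differed in Myc after adjustment over all probes and pairs, beside 6.66% of all pairs and probes, and 92 probes had as many pairs or more. None of the 10 pairs among the 5 lowest tumours, the 91 pairs of the middle range or the pair of tumours 667 and 656 was among them. All 70 pairs between the middle range and the 5 lowest differed, as did all 10 between tumours 667 or 656 and the 5 lowest, and 16 of the 28 between tumours 667 or 656 and the middle range. Among the 20 pairs of neighbours in the order, 1 passed, tumours 640 and 673, with an adjusted p of 0.0437 in limma. The step from tumour 656 down to tumour 638 did not pass (adjusted p = 0.364), so by the order alone tumour 656 is not set apart from the middle range.

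Arrays were put into 3 slide runs by the leading digits of the running numbers in the sample titles. This grouping was made here, and the labels do not call these runs batches. The numbers also jump within run 1, and other groupings were not tested. With slide run as a further term the adjusted p for Myc was 1.50e-05 in limma. Within runs, Myc ranged from -0.55 to 2.65 over the 4 tumours of run 1 (adjusted p = 0.0748, with 0 of 11040 probes differing), from 1.73 to 3.51 over the 5 tumours of run 2 (0.465, 0 of 9898 probes) and from -0.50 to 3.99 over the 8 tumours of run 3 (0.00458, 12.5% of probes). Run 2 held no tumour below 0. The other 4 tumours had arrays in different runs.

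Next, each of 9406 other tested probes was regressed on Myc over the tumour values in limma, with a slope in log2 of the gene per log2 of Myc. The fit, like the permutations further below, takes each tumour as an independent unit. Where tumours share an ancestor, which the labels do not give, its p-values may be too small, and this was not tested. Of these, 827 rose with Myc (8.79%) and 1270 fell with it (13.5%), 22.3% in either direction, at an adjusted p below 0.05. On the deposited scale without centring the split was 847 against 548. Hybridisation error in the Myc value and in the gene value of an array can go together, so Myc from arrays of one orientation was also set against genes from the other. With Myc of orientation A, 371 rose (3.94%) and 750 fell (7.97%), and with Myc of orientation B, 477 rose (5.07%) and 848 fell (9.02%). All of these fits shared 201 rising probes, which are 24.3% of the 827, 54.2% of the 371 and 42.1% of the 477, and 492 falling probes, which are 38.7% of the 1270, 65.6% of the 750 and 58.0% of the 848. Without tumour 646, 549 rose.

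The lists that follow hold known parts of Myc biology and markers of cell types. They are counted by gene, each by its probe with the smallest p, while the shares beside them are over single probes. Counted by gene for any probe that passed, 708 of 7628 tested genes rose with Myc and 1155 fell. In these tumours RNA is from bulk tissue, where fewer cells of a type and less RNA per cell cannot be told apart. The markers matter beside every slope, because the 5 tumours lowest in Myc were also the 5 highest in the mean level of 24 mesenchymal and matrix genes. That standardised level lay between -0.88 and 0.01 in the other 16 tumours and between 0.78 and 1.61 in the 5. Its part in the slopes was addressed by adding it as a term, as given further below.

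Of 17 tested members of the Myc network, 1 rose and 1 fell with Myc, beside 8.79% and 13.5% of all tested probes, and the median slope was 0.05 beside -0.00 over all tested probes. Max, the obligate partner, had log2 ratios between 0.45 and 2.86 over the 21 tumours, highest in tumour 662, and a slope of 0.12 ± 0.10 (SE, adjusted p = 0.396 in limma). Mxd4, a Max-binding repressor, rose with a slope of 0.27 ± 0.08 (adjusted p = 0.0181), but did not pass limma's F test between tumours (adjusted p = 0.845). Trrap, a scaffold of histone acetyltransferase complexes that Myc recruits, fell with a slope of -0.32 ± 0.07 (adjusted p = 0.00107). Mnt (-0.20, adjusted p = 0.105) and Mycl, a paralogue of Myc (0.13, adjusted p = 0.191), did not pass. Mycn, the other paralogue, had both arrays in only 6 tumours, from -1.22 to 0.36, and was not tested. Of 13 genes for turnover and translation of Myc, 2 fell and 0 rose, beside 13.5% and 8.79% of all tested probes: the ubiquitin ligase Huwe1 (-0.22, adjusted p = 0.0178) and Gsk3b (-0.23, 0.0249), a kinase that marks Myc for degradation.

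Of 19 nucleolar and polyamine targets 9 rose and 0 fell with Myc, beside 8.79% and 13.5% of all tested probes. The median slope was 0.21. Ncl, the nucleolar protein nucleolin, had slopes of 0.74 ± 0.17 (adjusted p = 0.00352) and 0.29 ± 0.08 (0.00828) by its 2 probes. By the first probe it ranged from -1.35 to 2.04 in the 16 tumours above the gap in Myc and from -2.76 to -0.54 in the 5 below it, and these ranges overlap. Srm, the spermidine synthase, rose with a slope of 0.30 ± 0.06 (adjusted p = 0.00103), with 0.46 to 1.41 in the 16 tumours and -0.32 to 0.42 in the 5, without overlap. Odc1, the first enzyme of polyamine synthesis and a textbook Myc target, had a slope of -0.13 ± 0.14 (adjusted p = 0.554), with its highest value, 0.96, in tumour 667 and its lowest, -1.47, in tumour 665.

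One-carbon, nucleotide, iron and chaperonin targets had 9 of 25 rising and 0 falling, beside 8.79% and 13.5% of all tested probes. Their median slope was 0.15. Tfrc, the transferrin receptor, ran from 0.30 in tumour 641 to 3.24 in tumour 667, with a median of 1.79, in the 16 tumours above the gap. It had -1.66, -1.72, -1.69, -3.38 and -0.99 in tumours 673, 649, 647, 644 and 646, so all 5 tumours lowest in Myc lay below every other tumour. Its slope was 1.19 ± 0.12 (adjusted p = 7.31e-07), and its second probe gave 1.00 ± 0.14. Over all tested probes, 8.9% had values in the 5 tumours that do not overlap those in the other 16. Shmt1 and Mthfd1, enzymes that load and interconvert one-carbon units, rose with slopes of 0.93 ± 0.12 (adjusted p = 1.27e-05) and 0.47 ± 0.07 (1.04e-04), and Shmt2, the mitochondrial form of Shmt1, with 0.29 ± 0.07 (0.00444).

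Of 14 cell cycle targets 1 rose and 2 fell, near the 8.79% and 13.5% of all tested probes. Id2, an inhibitor of differentiation factors, rose with a slope of 0.61 ± 0.09 (adjusted p = 2.54e-05). Ccnd1, cyclin D1, fell with a slope of -0.83 ± 0.12 (2.12e-05), from -2.27 to -0.24 in the 16 tumours and from 1.07 to 1.87 in the 5, without overlap. Mcm4, a subunit of the replication helicase, fell with a slope of -0.32 ± 0.07 (0.00111). Of 14 proliferation genes, 5 fell and 0 rose, among them the mitotic cyclin Ccnb2 (-0.38, adjusted p = 7.67e-05), the kinesin Kif20a (-0.34, 2.30e-04), Cdk1 (-0.18, 0.0147) and the topoisomerase Top2a (-0.22, 0.0320), while Mki67 had a slope of -0.03 (0.781).

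Genes known to be repressed by Myc had 9 of 18 falling and 0 rising, beside 13.5% and 8.79% of all tested probes. Their median slope was -0.25. Cav1, the coat protein of caveolae, ranged from -6.74 to -2.87 in 11 of the 16 tumours and from -0.06 to 0.80 in the 5, with a slope of -1.62 ± 0.22 (adjusted p = 4.10e-05). Gadd45a, a growth arrest gene, had a slope of -1.13 ± 0.17 (7.25e-05), the matrix-associated growth factor Ccn2 -0.69 ± 0.09 (2.02e-05) and the integrin Itgb1 -0.63 ± 0.11 (1.67e-04). Several of these are also high in mesenchymal cells. Cdkn1a, the cell cycle inhibitor p21, had a slope of -0.18 ± 0.16 (0.475). Of 7 genes of the apoptosis and tumour suppressor response, 3 fell and 0 rose, which were the survival genes Bcl2 (-0.59, adjusted p = 6.78e-04) and Mcl1 (-0.33, 7.55e-04) and Bin1 (-0.32, 0.0315), an adaptor that binds Myc.

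**Figure D2:**
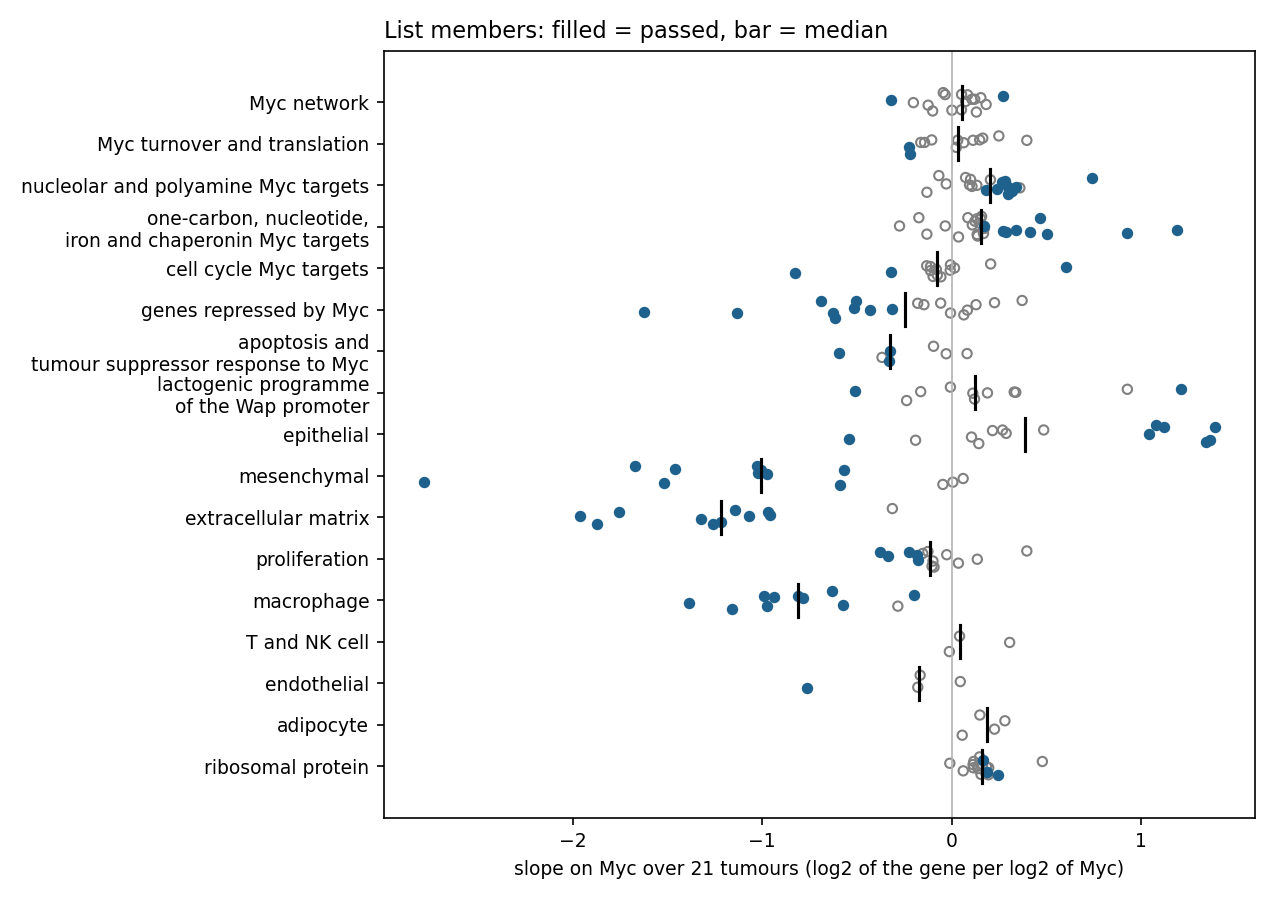
Slope of each tested gene on Myc over the 21 tumours (log2 of the gene per log2 of Myc, horizontal axis), 1 row of points for each list. Filled points passed limma's test at an adjusted p below 0.05, open points did not, and the bar is the list's median; matrix, mesenchymal and macrophage lists lie furthest to the left, at medians of -1.22, -1.01 and -0.81.

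Genes of the secretory programme that acts on the transgene's promoter varied widely among tumours high in Myc. Wap had 2 probes, with both arrays in 13 and in 4 tumours, too few for the test. The first read 6.95 in tumour 638 and between 1.82 and 3.87 in 9 others of the 16 above the gap, and 1.53, 0.34 and -0.29 in tumours 644, 673 and 649. The second probe read 8.66 in tumour 643, 3.24 in tumour 641, 0.92 in tumour 664 and 0.38 in tumour 646. In tumour 664 the probes thus disagree, at 3.45 by the first, and by the second its value lies below the 1.53 of tumour 644 by the first. In tumour 667, highest in Myc, the B array alone gave Wap values, 8.12 and 7.76 by the 2 probes, and in tumour 656 neither array did. Csn2, the beta-casein, was 1.72 in tumour 667 and 0.06 in tumour 656, against 7.28 in tumour 663 and 7.19 in tumour 641 from the middle range of Myc, and was lowest in tumour 646 at -1.41. Its slope was 0.93 ± 0.39 (adjusted p = 0.0907). Csn3, the kappa-casein, measured in 15 tumours, rose with a slope of 1.21 ± 0.38 (adjusted p = 0.0314 in limma). Jak2, the kinase of the prolactin receptor, fell with -0.51 ± 0.12 (0.00450). Of 11 tested lactogenic genes these 2 passed, 1 rising and 1 falling, near the 8.79% and 13.5% of all tested probes.

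Markers of cell types had the steepest median slopes of the lists examined, in the matrix, mesenchymal and macrophage lists. Vim, the intermediate filament of mesenchymal cells, had -4.63 to -3.37 with a median of -4.00 in the 16 tumours above the gap, against 0.39, 0.93, 0.94, 0.42 and 0.94 in tumours 673, 649, 647, 644 and 646. The 2 ranges lie far apart, and the slope was -1.46 ± 0.14 (adjusted p = 2.48e-07). Of 13 mesenchymal genes 10 fell, of 11 matrix genes 10 fell, and 0 rose in either list, with Fn1 (fibronectin) at a slope of -1.67, Col1a1 at -1.32 and Col6a1 at -1.96. Over all tested probes 8.79% rose and 13.5% fell. Of 14 epithelial genes 6 rose and 1, the junction protein Tjp1 (-0.54), fell. Epcam, an epithelial surface adhesion protein, ranged from 1.30 to 3.73 in the 16 tumours and from -2.91 to 0.10 in the 5, with a slope of 1.37 ± 0.14 (6.74e-07).

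Of 11 macrophage genes 10 fell with Myc and 0 rose, beside 13.5% and 8.79% of all tested probes. The mannose receptor Mrc1 was -1.85 to 0.52 in 15 of the 16 tumours and 3.29 to 4.27 in the 5 lowest in Myc, and the signalling adaptor Tyrobp was -1.63 to 1.11 in 15 of the 16 and 2.30 to 2.57 in the 5. The mean of the list lay between -1.49 and 0.71 in the 16 tumours and between 1.95 and 2.40 in the 5. Of 4 endothelial genes 1 fell, the sialomucin Emcn (-0.76, adjusted p = 0.00579), and 0 of 3 T and NK cell and 0 of 4 adipocyte genes passed in limma, nor did any of them at an unadjusted p below 0.05. None of the 7 B and plasma cell genes on the array had values in enough tumours to be tested. Of 18 ribosomal protein genes 3 rose, Rpl27, Rpl4 and Rpl5, with slopes of 0.24, 0.19 and 0.16, and 10 did at an unadjusted p below 0.05. For the counts of 0 given above for gene lists, the unadjusted counts in limma were also 0, except for 2 rising genes of turnover and translation and 1 falling one-carbon target. Some other named genes whose slopes passed did not pass limma's F test between tumours. These were Bcl2 (adjusted p = 0.0821), Top2a (0.0936), Rpl5 (0.127), Huwe1 (0.147), Rpl4 (0.163) and Jak2 (0.164). In each list the part of tissue composition in the slopes on Myc was not tested apart from the fit with the mesenchymal and matrix level.

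**Figure D3:**
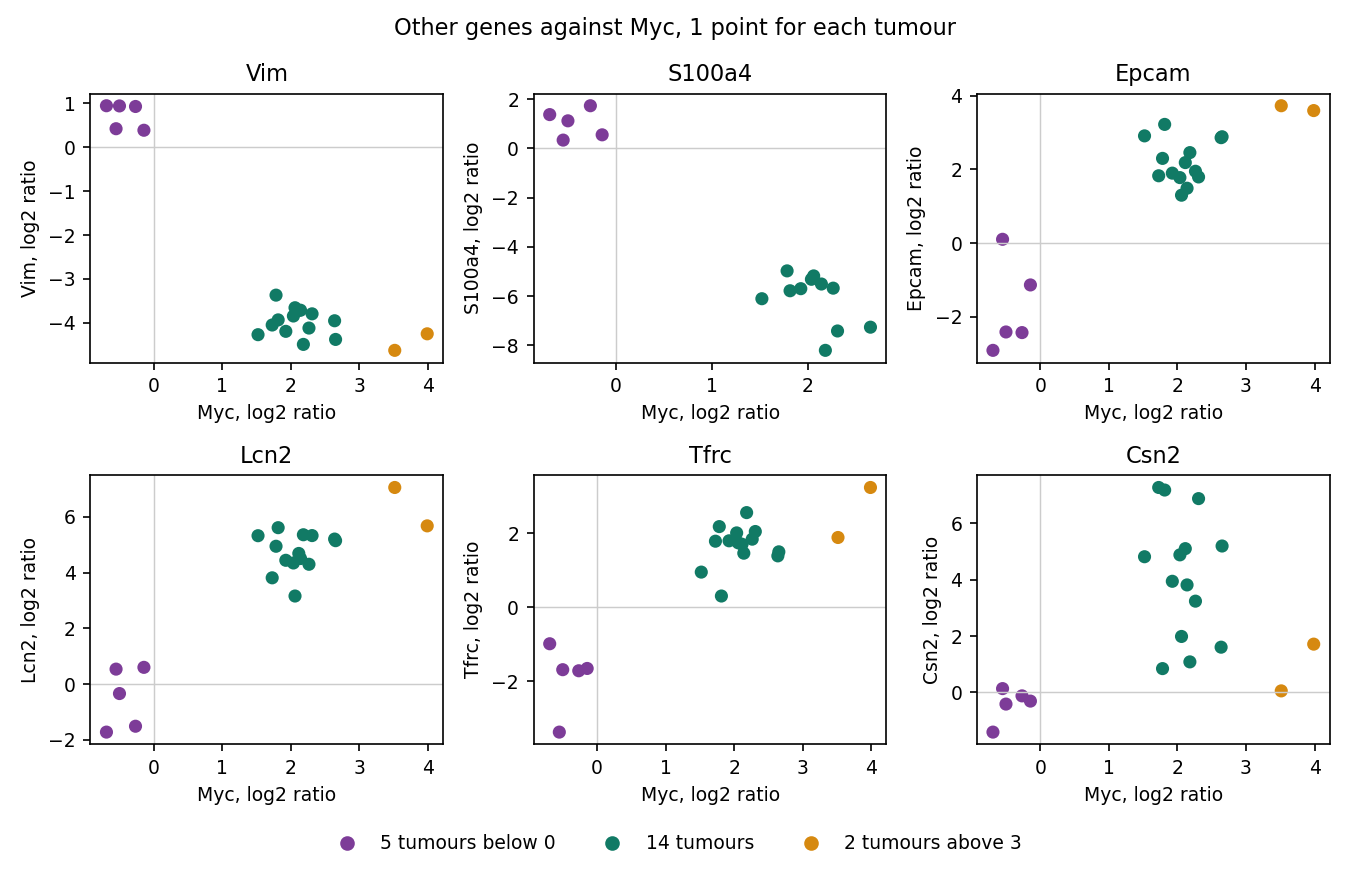
Log2 ratio of 6 genes (vertical axes) against that of Myc (horizontal axes), 1 point for each tumour with both arrays measured, coloured by the 3 components of Myc. Vim is at -3.37 or lower and S100a4 at -4.97 or lower in the tumours with Myc above 1, and both are above 0 in the 5 tumours with Myc below 0, Epcam, Lcn2 and Tfrc run the other way, and Csn2 spreads from 0.85 to 7.28 within the 14 middle tumours.

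The genes most like Myc were chosen by Pearson correlation with it over the tumour values, among probes of a single gene that passed the regression. Since Myc falls into separate components, that correlation is not printed, and the slopes of genes picked this way are given as descriptions. The 10 most alike were Psmg1 (slope 0.37), a proteasome assembly chaperone, Uchl3 (0.38), a ubiquitin hydrolase, Acy1 (1.14), Abhd11 (0.76), a mitochondrial hydrolase, Rbm47 (1.21), an RNA-binding protein, Ppif (0.76), the mitochondrial cyclophilin, Lcn2 (1.77), an iron-siderophore carrier, Ifrd2 (0.63), Acad9 (0.60), an assembly factor of respiratory complex I, and Elf3 (1.34), an ETS factor of epithelia. They were measured in 15 to 21 tumours.

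Psmg1 had its highest value, 1.81, in tumour 667, which was also highest in Myc. In the other 15 tumours above the gap it lay between 0.59 and 1.05, and in tumours 673, 649, 647, 644 and 646 it was -0.08, -0.09, -0.26, -0.25 and -0.10. Acy1, whose promoter window above holds an E-box, ranged from 1.15 to 3.11 in 14 of the 16 tumours and from -2.10 to -0.40 in the 5. Lcn2 ranged from 3.16 to 7.06 in the 16 and from -1.72 to 0.60 in the 5. Elf3 had both arrays in only 1 of the 5, tumour 673, at -1.92.

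The 10 most opposed were S100a4 (slope -2.79), a calcium-binding protein of motile cells, Lrp1 (-1.70), an endocytic receptor, Anln (-0.89), Ahsg (-1.59), the plasma protein fetuin-A, Bgn (-1.14), a matrix proteoglycan, Nckap1l (-0.86), a WAVE complex subunit of blood cells, Ilk (-0.50), Thbs2 (-1.51), a thrombospondin, Tusc3 (-0.73), a subunit of the oligosaccharyltransferase, and Ifngr1 (-0.81), the interferon gamma receptor. S100a4 ranged from -8.20 to -4.97 in 11 of the 16 tumours and from 0.34 to 1.74 in the 5. Lrp1 ranged from -4.60 in tumour 656 to -1.87 in 15 of the 16, and from 1.18 to 2.33 in the 5. Anln and Ilk, whose windows above also hold the E-box, were lower in the 16, at -3.13 to -1.09 (13 tumours) and -1.55 to -0.16, than in the 5, at -0.02 to 0.97 and 0.61 to 1.06.

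**Figure D4:**
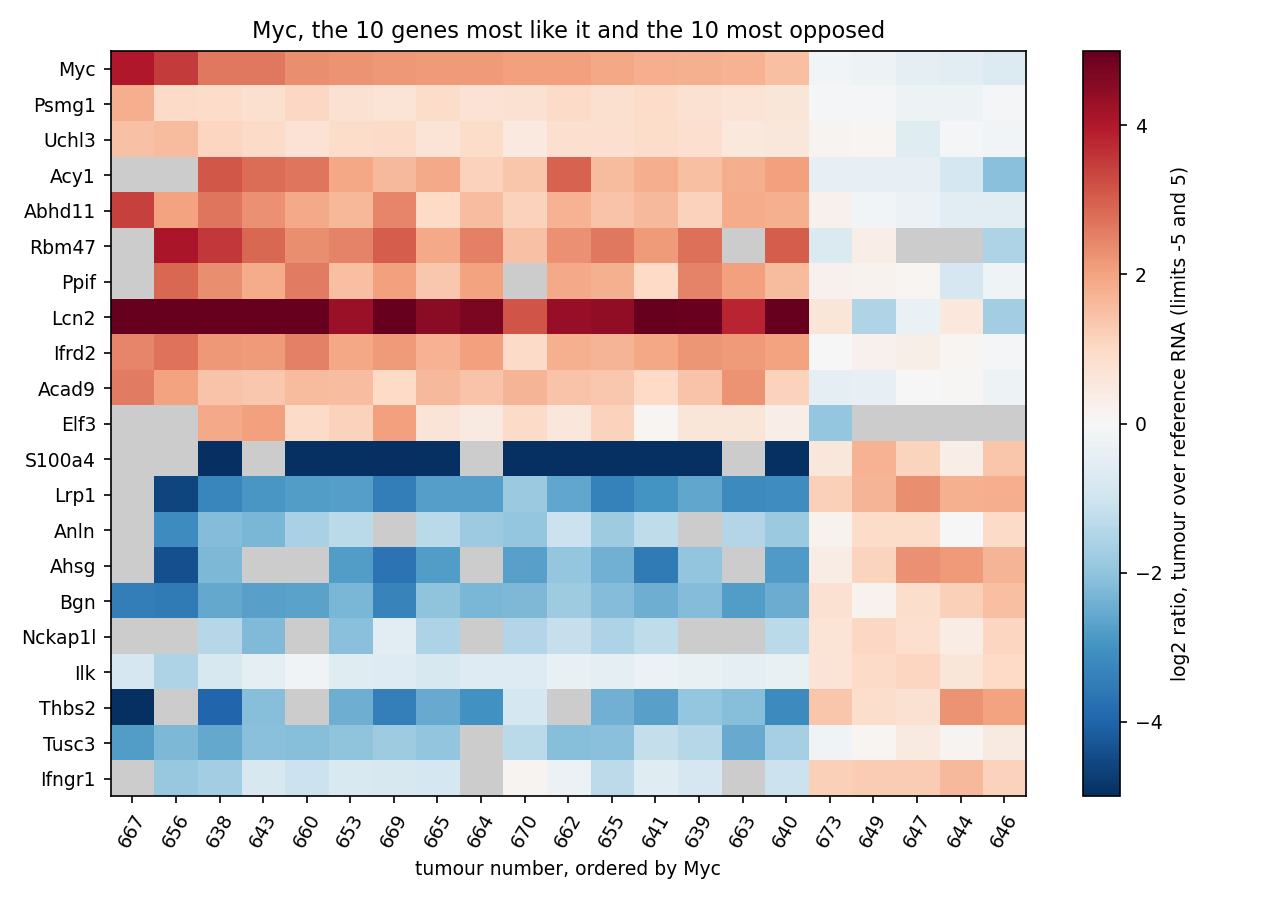
Log2 ratios (colour, limited at -5 and 5) of Myc, the 10 genes most like it and the 10 most opposed, by tumour in the order of Myc; grey marks tumours without both arrays. In each row the values of the 5 tumours on the right, from 673 to 646, do not overlap those of the others, and Elf3 has 1 value among the 5. The genes were picked by their correlation with Myc, which has its own gap at this place, so the separation follows from the choice. Over all tested probes 8.9% do not overlap.

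Within the 14 middle tumours, where Myc forms a single component, no probe passed. In limma 0 of 9646 probes rose and 0 fell (0% each), beside 298 and 148 at an unadjusted p below 0.05. Of the Pearson correlations with 100000 permutations, two-sided, 0 passed after Benjamini-Hochberg adjustment over 9646 probes, the smallest adjusted p being 0.822, while 401 had an unadjusted p below 0.05. Elf3 had r = 0.76 (permutation p = 0.00143, adjusted 0.822) and rho = 0.72 (permutation p = 0.00494), and r = 0.68 without tumours 640 and 638, the farthest from the median. Uchl3 had r = 0.59 (permutation p = 0.0273) and rho = 0.59 (0.0285), and r = 0.35 without those tumours. Vim, at r = -0.16 (permutation p = 0.582), and Tfrc, at 0.21 (0.479), did not pass even unadjusted. The SD of Myc in these tumours, 0.32, lies below the standard error of a tumour mean, 0.35, and what size of relation could have been detected there was not tested.

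Over the 16 tumours above the gap, which hold both tumours with means above 3, 10 of 8593 probes rose with Myc and 10 fell (0.116% each). Over the 8 tumours of slide run 3, 256 of 10833 rose (2.36%) and 516 fell (4.76%); 3 of those 8 lie below the gap. With the mesenchymal and matrix level as a term beside Myc, 2 of 9406 rose (0.0213%) and 0 fell (0%) in limma, beside 572 and 533 at an unadjusted p below 0.05. No tested member of any list passed. For the mesenchymal and matrix lists the fit cannot decide this, because their tested members make up that level. Myc and that level go together closely across the 21 tumours, with a variance inflation factor of 4.89, so the fit has little room to part them.

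**Figure D5:**
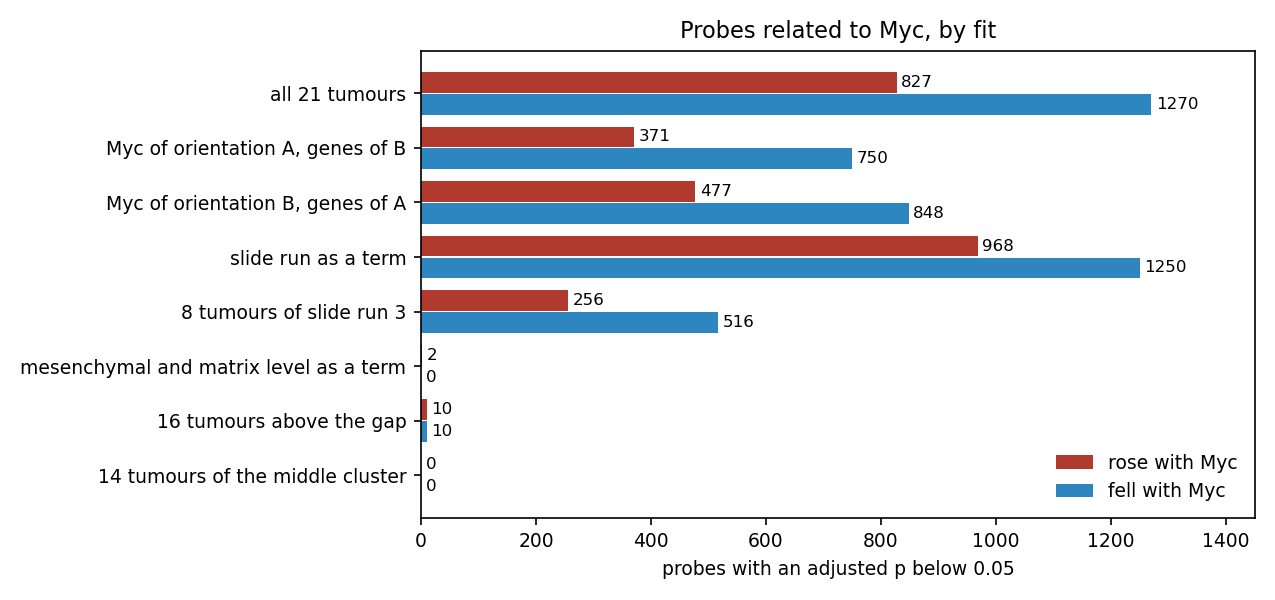
Number of probes that rose (red) or fell (blue) with Myc at an adjusted p below 0.05 in limma, by fit. The counts of 827 and 1270 over all 21 tumours stand at 10 and 10 within the 16 tumours above the gap, 2 and 0 with the mesenchymal and matrix level as a term, and 0 and 0 within the 14 middle tumours.

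In the promoter table, windows were found for 579 of 708 genes that rose with Myc, 916 of 1155 that fell and 6150 of 7628 tested. By gene, CACGTG was in a window of 75 rising (12.95%), 97 falling (10.6%) and 744 of all tested genes (12.1%). Counted by single window, genes not tested included, it was in 7.15% of all 32851 windows. TTCNNNGAA was in 7.25% of rising, 6.44% of falling and 7.93% of all tested genes, and in 8.30% of all single windows. Shares by gene and by window are not like for like. The shares among rising genes lay near those of all tested genes. Among the 10 genes most like Myc, 1 of 9 genes with a window held CACGTG (11.1%), and among the 10 most opposed 2 of 8 did (25%).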

How the data were processed

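The authors made the deposited log2 values as ratios of one dye over the other on arrays hybridised in dye-swapped pairs, per the labels' protocols, which end before image processing. There were 22800 probes on each of 42 arrays, the scale was read from the values, and background correction, normalisation and dye per array are not given in the sources used. Of the deposited cells 24.1% were blank, and 15512 values at the repeated top of 16.61 (2.14%) were treated as missing. By the platform annotation 16874 probes had 1 gene symbol, 134 several and 5792 none, and 16196 matched a current entry. The 232 Gapdh control spots were averaged.

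The difference of both arrays of a tumour was taken per probe, and each pair was oriented by the leading eigenvector of the correlation matrix of these 21 differences (44.3% of variance). All 6 other ways of finding it, among them leaving out Myc, gave the same orientation for 21 of 21 tumours. Turned tumours correlated with a median of 0.40 and a lowest of -0.04, and arrays of one orientation at -0.24 or above. The sign was set by caseins and Wap. Arrays were centred on the median of the 4038 probes measured on all of them, which before centring lay between -1.14 and 0.78.

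Probes with both arrays in at least 15 tumours were tested with limma 3.58.1 in R 4.3.3, by a moderated F test over tumours with dye orientation as a term, 210 contrasts of that fit, and a regression of 21 tumour values on Myc, all with Benjamini-Hochberg adjustment. Components came from mclust 6.1.1. The scripts were tested on simulated data. Named genes were those most correlated with Myc in each direction, 10 each, genes set by name, the members of the Myc network, and up to 4 members of each list with the smallest adjusted p. Myc and the lists were chosen with earlier results of these data known. For genes with several probes in a list, the probe with the smallest p was counted. Alternatives covered the zero and scaling of arrays, the orientation term, the top value, slide run, the minimum of tumours, single arrays and tumours left out, the orientation behind each value, and added terms.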

Additional observations from a re-analysis of the deposited data

How the results depend on the processing

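Myc differed between tumours in limma under every setting over all tumours, with adjusted p from 9.32e-08, for probes measured in all 21 tumours, to 7.40e-04, after quantile normalisation. It lay between 3.23e-07 and 4.31e-06 without single arrays and between 5.21e-07 and 6.17e-06 without single tumours, and missed the threshold within slide runs 1 (0.0748) and 2 (0.465). Of all probes, 3798 differed in the setting of the report, 2427 with arrays centred on the median of all their measured probes, 2004 after quantile normalisation, 2357 without the orientation term and 2265 among the probes measured in all 21 tumours, of which fewer were tested. The count ran from 3186 to 4439 without single arrays and from 3356 to 4022 without single tumours.

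Beside 827 probes that rose and 1270 that fell with Myc, the counts were 847 and 548 on the deposited scale, 371 and 750 with Myc of orientation A against genes of B, 477 and 848 the other way round, 403 and 712 with the rank of Myc, and 470 and 617 among probes measured in all 21 tumours. They were 350 and 761 without tumours 646 and 644, the farthest from the median of Myc. With other tumours or terms, chosen after seeing the data except for the added term, they were 256 and 516 in slide run 3, 10 and 10 in the 16 tumours above the gap, 0 and 0 in the 14 middle tumours, and 2 and 0 with the mesenchymal and matrix level as a term. Without single tumours, 549 (without tumour 646) to 929 rose and 956 to 1385 fell. Fewer tumours were fitted in several of these, and otherwise the cause was not tested.

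Within the 14 middle tumours, 0 correlations passed in the setting of the report and 3354 did on the deposited scale. On that scale every probe of a tumour shares the tumour's zero, whose SD over those tumours was 0.36 beside 0.32 for Myc.

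Some slopes of named genes turned their sign. With the mesenchymal and matrix level as a term, these were the second Ncl probe (-0.0362), Npm1 (-0.0928), Shmt2 (-0.0640), Bin1 (0.00568), Jak2 (0.0420), Emcn (0.20) and Rpl4 (-0.0247). In the 16 tumours they were Ccnd1 (0.0136), the second Ncl probe (-0.14), Npm1 (-0.0844), Shmt2 (-0.0630), Bin1 (0.0639) and Jak2 (0.0519). In the 14 tumours they were Acad9 (-0.0283), Ahsg (0.13), Ccnd1 (0.15), both Ncl probes (-0.35 and -0.00338), the second Tfrc probe (-0.00422), Huwe1 (0.12), Id2 (-0.0413), Mcm4 (0.0569), Ccn2 (0.27), Cav1 (0.76), Gadd45a (1.18), Bin1 (0.12), Jak2 (1.41), Tjp1 (0.0939), Fn1 (0.26), Mrc1 (0.17), Msr1 (0.0153), Emcn (0.16), Rpl27 (-0.11), Rpl4 (-0.0165) and Rpl5 (-0.0238). The cause was not tested, and the SD of Myc in the 14 tumours lies within the error of a tumour mean. Under the other settings no named slope that had passed turned. Named slopes that had not passed are left out of these lists, and some of them turned as well. With the mesenchymal and matrix level as a term, Csn2 went from 0.93 to -1.47 and Cdkn1a from -0.18 to 0.48.

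No paired analysis was possible because the tumours are single units and the 2 arrays of a tumour repeat its RNA. The limits are the unknown line of each tumour, the unstated dye orientation and overall sign, the single Myc probe, the bulk tissue, and Myc values that divide the tumours at the same place as the mesenchymal and matrix level.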

Other observations

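Within the 16 tumours above the gap in Myc, a set of tumours chosen after seeing the data, the probes that rose with it in limma included Bag1, a co-chaperone, with a slope of 0.89 ± 0.17 (SE, adjusted p = 0.0397), S100a16, a calcium-binding protein, with 1.79 ± 0.25 (0.0148, 12 tumours), Skil, an inhibitor of Smad signalling, with 1.61 ± 0.29 (0.0412, 12 tumours), and Pllp, a myelin and epithelial membrane protein, with 1.43 ± 0.24 (0.0261, 14 tumours). Alx4, Coq7, Cystm1, Mcrip2, Wdr7 and a probe with no gene name completed the 10. Those that fell included Lipa, the lysosomal acid lipase, with -1.43 ± 0.18 (0.00166, 16 tumours), Scpep1, a serine carboxypeptidase, with -1.47 ± 0.25 (0.0304, 14 tumours), Dek, a chromatin protein, with -1.07 ± 0.17 (0.0148), and Cdk9, the kinase that releases paused RNA polymerase, with -1.02 ± 0.20 (0.0436). Dbndd2, Ppih, Tmem189, Tsfm, Ugt2b37 and a probe with no gene name completed those 10. Tumours 667 and 656, highest in Myc, are in this fit, and without them, within the 14 middle tumours, none of these probes passed.

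With the mesenchymal and matrix level as a term, Pcbp3, an RNA-binding protein, rose with a slope of 2.86 ± 0.43 (adjusted p = 0.0318 in limma, 15 tumours) and Sgce, the epsilon-sarcoglycan, with 1.28 ± 0.19 (0.0234, 17 tumours).

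Bcl2, an inhibitor of apoptosis, had r = -0.78 with Myc over the 10 middle tumours that measured it (permutation p = 0.00541, adjusted over 9646 probes 0.990) and rho = -0.89 (permutation p = 0.00103, adjusted 1). Jak2, which fell with Myc over all tumours, had r = 0.71 over 11 middle tumours (permutation p = 0.0136, adjusted 0.999) and rho = 0.77 (0.00804). Neither passed the correction. Without tumours 640 and 638 the correlations were -0.69 and 0.76.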
